A study of Mus musculus with 6 samples.

Results

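RNA abundance was compared between neuronal progenitors (NPC) and the mouse embryonic stem cells (mESC) they were made from, across all genes of the deposited tables and with an eye to transporters, adhesion, signalling, metabolism and whole gene families. The comparison takes in 4 of the 6 libraries of the study, the 2 titled NPC and the 2 titled mESC. All 6 come from E14TG2a, a mouse embryonic stem cell line of blastocyst origin whose genotype label reads WT. The mESC libraries carry the treatment label None and come from cells grown feeder-free on gelatin, with serum and with LIF, a cytokine that holds stem cells undifferentiated. The NPC libraries carry the treatment label Neuronal differentiation, from a published protocol for making glutamatergic neurons. The labels give no day of that protocol, and their cell type field reads embryonic stem cells for every library, so the groups were taken from the titles. The labels call the 2 libraries of a group biological replicates. They do not say whether these came from separate cultures, so p-values measure the spread between these libraries.

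The markers of each label were checked first. All 9 tested stem cell identity genes were lower in NPC, among them Nanog, a core pluripotency factor, at 213 and 261 TPM in mESC, against 0 and 0 TPM in NPC. All 10 tested neural progenitor genes were higher in NPC, among them Nes, the intermediate filament of neural stem cells, at 6.92 and 10.9 TPM in mESC, against 102 and 109.6 TPM in NPC. In bulk RNA, fewer cells of a type and less RNA per cell cannot be told apart. Postmitotic neuron genes were also higher in NPC, with 9 of 10 tested members rising. Dcx, a microtubule protein of young neurons, reached 44.3 and 68.1 TPM in NPC from a listed 0 in both mESC libraries. Stmn2, a growth cone protein, was the exception and fell from 162 and 193 TPM to 67.5 and 77.8 TPM. None of the 7 tested mesoderm and heart markers passed the limma test, with 1 higher and 0 lower at an unadjusted p under 0.05. Of 8 tested neural crest markers 3 rose and 1 fell, and of 7 astrocyte and oligodendrocyte markers 3 rose and 0 fell. Of 10 fibroblast and smooth muscle markers 2 rose and 2 fell. For blood and endothelium 0 of 5 rose and 2 fell, and for surface ectoderm and trophoblast 1 of 5 rose and 2 fell. Of the 10 endoderm markers, Sox17, Foxa2 and Apoa1 rose, and each lost its call when 1 library was left out. The summed level of the endoderm list was 294 and 62.2 TPM in the mESC libraries and 306 and 203 TPM in the NPC libraries, so mESC replicate 1 was as high as the NPC libraries and mESC replicate 2 was low. The call of Sox17 was lost without mESC replicate 2 (log2 fold change 1.47) and without NPC replicate 1 (log2 fold change 2.14) and without NPC replicate 2 (log2 fold change 2.67), that of Foxa2 without mESC replicate 2 (log2 fold change 1.61) and without NPC replicate 1 (log2 fold change 2.1) and without NPC replicate 2 (log2 fold change 2.56), and that of Apoa1 without mESC replicate 2 (log2 fold change 1.70) and without NPC replicate 1 (log2 fold change 1.65).

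Values are TPM, an abundance per length of transcript that sums to the same total in each library. The depth put into each library, from the ratio of coverage to FPKM in the tables, was 1.57 and 2.27 Gb of aligned bases in mESC and 2.25 and 1.99 Gb in NPC. Of 20232 tested genes, 5268 rose and 2832 fell in NPC by limma at a Benjamini-Hochberg adjusted p under 0.05, which is 26.0% and 14.0% of those tested and 40.0% together. These shares are the background against which the counts of each list are read. Calls that held in the fit with all libraries and in all 4 fits without 1 library are counted as held in all 5 fits, and they made up 11.7% (rose) and 5.95% (fell) of all tested genes. Over every tested gene the median log2 fold change came to 0.18. Median-of-ratios scaling moved it to -0.01 and gave 21.2% rising and 19.0% falling. A log2 fold change near 0.18 is therefore no change relative to the bulk of genes. After quantile normalization 3963 of the 20232 tested genes rose and 3771 fell, and list counts under that scaling are read against these. An exact 0 is given as listed at 0, since all 37 genes of the mitochondrial chromosome were at 0 in every library. Folds are left out where both libraries of a group are at 0.

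Stem cells in serum and LIF divide quickly and are known for a metabolism built around nucleotide and one-carbon supply, for strong ERK activity downstream of FGF, and for epithelial contacts through E-cadherin. Neural progenitors form a polarised epithelium held by N-cadherin, carry a primary cilium, and use a different set of surface proteoglycans, sialylated sugars and G protein pathways. The genes were ordered from what crosses the membrane, through what holds and signals at the surface, to the enzymes inside.

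**Figure D1:**
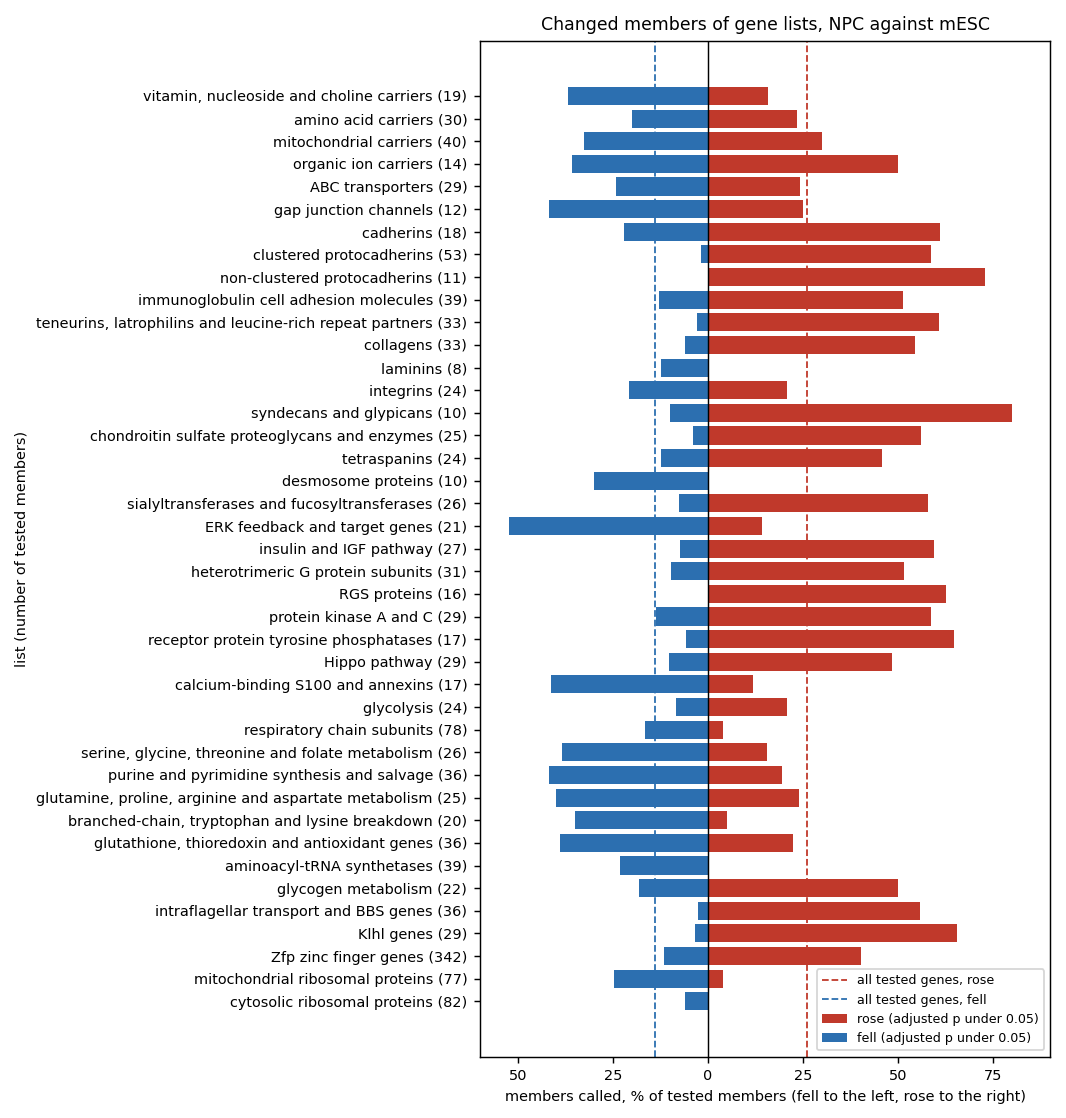
Share of tested members that rose (red, right) or fell (blue, left) in NPC against mESC for 41 of the gene lists, in percent of the tested members given in brackets. Dashed lines mark all tested genes, 26.0% rising and 14.0% falling. Syndecans and glypicans extend furthest to the right and ERK feedback genes furthest to the left.

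Transporters and channels as a group moved in both directions. Of 396 tested members, 98 rose and 89 fell, and the count of those that held in all 5 fits was 44 and 36. After median-of-ratios scaling 86 rose and 106 fell. The median log2 fold change of 0.18 was that of all genes.

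Nucleoside uptake genes showed steep losses. Slc29a1 (ENSMUSG00000023942.14, chromosome 17, 45585200 to 45599606), the equilibrative nucleoside carrier ENT1, stood at 508 and 409 TPM in mESC, against 19.2 and 21 TPM in NPC. Both NPC libraries lay below both mESC libraries by more than an order of magnitude (adjusted p = 2.09e-05, log2 fold change -4.44, SE 0.161). Slc28a1, a sodium-coupled carrier of pyrimidine nucleosides, stood at 31.2 and 18.1 TPM in mESC and was listed at 0 in both NPC libraries (adjusted p = 1.87e-04). Upp1, uridine phosphorylase, which frees the base from uridine once it is inside, went from 403 and 372 TPM to 20.6 and 15.4 TPM (adjusted p = 3.25e-05, log2 fold change -4.36, SE 0.186). Slc28a2, a purine nucleoside carrier, moved the other way from a listed 0 in both mESC libraries to 3.03 and 2.09 TPM (adjusted p = 0.00189). In the list of vitamin, nucleoside and choline carriers 3 of 19 tested members rose and 7 fell (1 and 3 in all 5 fits). It includes Slc19a2, a thiamine carrier, at 60.1 and 52.7 TPM in mESC and 28.8 and 29.3 TPM in NPC, whose call was lost in each fit without 1 library, where the log2 fold change ranged from -1.02 to -0.84, and Slc44a1, a choline carrier, at 83.9 and 53.7 TPM in mESC and 30.6 and 33.3 TPM in NPC, whose call was lost without mESC replicate 1 (log2 fold change -0.73) and without NPC replicate 1 (log2 fold change -0.99) and without NPC replicate 2 (log2 fold change -1.11).

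Among amino acid carriers 7 of 30 tested members rose and 6 fell (4 and 4 in all 5 fits, 6 and 8 after median-of-ratios scaling). Carriers of cationic amino acids were among those that fell. Slc7a7, the light chain of an exchanger of cationic for neutral amino acids, fell from 194 and 135 TPM to 6.35 and 5.23 TPM (adjusted p = 5.47e-05, log2 fold change -4.59, SE 0.234). Its gene overlaps Oxa1l on the opposite strand, which stood at 86.1 and 65.8 TPM in mESC and 102 and 99.4 TPM in NPC, and the labels name no strand setting. Slc7a3, the arginine and lysine carrier CAT3, fell from 178 and 111 TPM to 8.93 and 8.79 TPM (adjusted p = 0.00186, log2 fold change -3.84, SE 0.519). Carriers of neutral amino acids also lost level. Slc1a5, which takes up glutamine, fell from 178 and 80.5 TPM to 21.3 and 23.7 TPM, and Slc38a4 fell from 202 and 128 TPM to 44.2 and 44 TPM. Slc7a5, the light chain of the large neutral amino acid carrier LAT1, stood at 462 and 164 TPM in mESC, against 74.5 and 73.3 TPM in NPC, with mESC replicate 1 far above mESC replicate 2. Its call was lost without mESC replicate 1 (log2 fold change -1.14) and without NPC replicate 1 (log2 fold change -1.89) and without NPC replicate 2 (log2 fold change -1.87). Slc3a2, the heavy chain that LAT1 needs, had the same pattern, at 459.8 and 191 TPM in mESC and 106 and 117 TPM in NPC, and did not pass the test (adjusted p = 0.0527).

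Carriers of glutamate, cystine and proline were among those that rose. Slc1a3, the glutamate carrier GLAST of radial glia and astrocytes, rose from 17.2 and 11.3 TPM to 71.1 and 76.6 TPM (adjusted p = 0.00214, log2 fold change 2.32, SE 0.325). Slc1a2, the glutamate carrier GLT-1, rose from 0.018 and 0.0414 TPM to 20.8 and 30.2 TPM (adjusted p = 5.89e-05, log2 fold change 4.66, SE 0.245). Slc36a4, a proline and tryptophan carrier, rose from 2.2 and 1.33 TPM to 17.2 and 19.5 TPM, and Slc7a11, the cystine carrier xCT, rose from 2.31 and 3.71 TPM to 9.59 and 14 TPM. Slc15a1, which takes up short peptides, went the other way, from 25.3 and 8.8 TPM in mESC to a listed 0 in both NPC libraries (adjusted p = 9.53e-04). Slc6a6, the taurine carrier, fell from 223 and 158 TPM to 83.5 and 78.5 TPM.

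Sugar uptake showed a pair of carriers in opposite order. Slc2a3, the high-affinity glucose carrier GLUT3, fell from 1335 and 682 TPM to 214 and 249 TPM (adjusted p = 0.00253, log2 fold change -2.04, SE 0.298). Slc2a1, the glucose carrier GLUT1 of most cells, stood at 577 and 304 TPM in mESC, against 998 and 1096 TPM in NPC. The NPC libraries of Slc2a1 lay above both mESC libraries, but it did not pass the limma test (log2 fold change 1.32, adjusted p = 0.0521). That test takes its spread from all 6 libraries. The mESC libraries lay apart, and so did the libraries of the third group, titled NC, at 22.7 and 53.7 TPM. The level of Slc2a3 was above that of Slc2a1 in both mESC libraries and below it in both NPC libraries. Of the lactate carriers, Slc16a1 stood at 157 and 109 TPM in mESC and 101 and 74.3 TPM in NPC and Slc16a3 at 66.9 and 26.2 TPM in mESC and 82.9 and 123 TPM in NPC, and neither passed (adjusted p = 0.0871 and 0.0907).

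Among mitochondrial carriers 12 of 40 tested members rose and 13 fell (7 and 2 in all 5 fits). Of the ADP/ATP exchangers, Slc25a5 fell from 604 and 781 TPM to 401 and 399 TPM while Slc25a4 rose from 296 and 301 TPM to 417 and 417 TPM. Both differences were small beside the level, and both calls were lost in each fit without 1 library. The log2 fold change in these fits ranged from -0.96 to -0.59 for Slc25a5. For Slc25a4 it stayed at 0.47 to 0.49, so no single library set its size. Larger falls were those of Slc25a13, the aspartate and glutamate exchanger citrin, from 128 and 115 TPM to 43.3 and 38.8 TPM, and of Slc25a40, a glutathione carrier, from 70.1 and 37.6 TPM to 10.7 and 11.6 TPM. Slc25a23, a calcium-gated carrier of ATP-magnesium and phosphate, rose from 14.4 and 11.6 TPM to 62.3 and 70.6 TPM. Among organic ion carriers 7 of 14 tested members rose and 5 fell (5 and 3 in all 5 fits). Slc22a17, a receptor for the iron-binding protein lipocalin-2, rose from 5.65 and 5.0 TPM to 48.5 and 57.6 TPM.

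Several export pumps of drugs and signalling molecules were lower in NPC. Abcc4, which exports cyclic nucleotides and prostaglandins, fell from 157 and 81 TPM to 10.9 and 7.09 TPM (adjusted p = 5.43e-04, log2 fold change -3.54, SE 0.348). Abcg2, the pump behind the dye-excluding side population of many stem cells, fell from 62.6 and 53.2 TPM to 15.7 and 13.3 TPM. The P-glycoprotein genes Abcb1a and Abcb1b were at 8.85 and 4.53 TPM in mESC and 0.583 and 0.423 TPM in NPC and at 16.4 and 11.4 TPM in mESC and 2.93 and 1.6 TPM in NPC, and the call of Abcb1b was lost without mESC replicate 1 (log2 fold change -1.95) and without mESC replicate 2 (log2 fold change -2.44) and without NPC replicate 2 (log2 fold change -1.90). Abcd2, which carries very long fatty acids into peroxisomes, rose from 0 and 0.123 TPM to 13 and 13.3 TPM (adjusted p = 4.01e-04, log2 fold change 3.74, SE 0.34). Over all ABC transporters 7 of 29 tested members rose and 7 fell (4 and 3 in all 5 fits).

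Of the gap junction and related channels, Gjb5 (ENSMUSG00000042357.2, chromosome 4, 127354809 to 127358181), a connexin of epithelia, was at 44.5 and 29.1 TPM in mESC, against 0.317 and 0.312 TPM in NPC (adjusted p = 1.16e-04, log2 fold change -4.81, SE 0.308). Both NPC libraries lay near 0. Gja1, connexin 43, overlapped between the groups, at 125 and 90.4 TPM in mESC, against 123 and 121 TPM in NPC (adjusted p = 0.447). Aqp3, a water and glycerol channel, fell from 20.1 and 13.4 TPM to 0.0643 and 0 TPM, and Piezo1, a mechanically gated ion channel, fell from 120.1 and 90.7 TPM to 13.1 and 14 TPM (adjusted p = 0.00157, log2 fold change -2.86, SE 0.37). A gene that overlaps Piezo1 on the opposite strand stood at 40.9 and 42 TPM in mESC and 27.5 and 34 TPM in NPC.

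**Figure D2:**
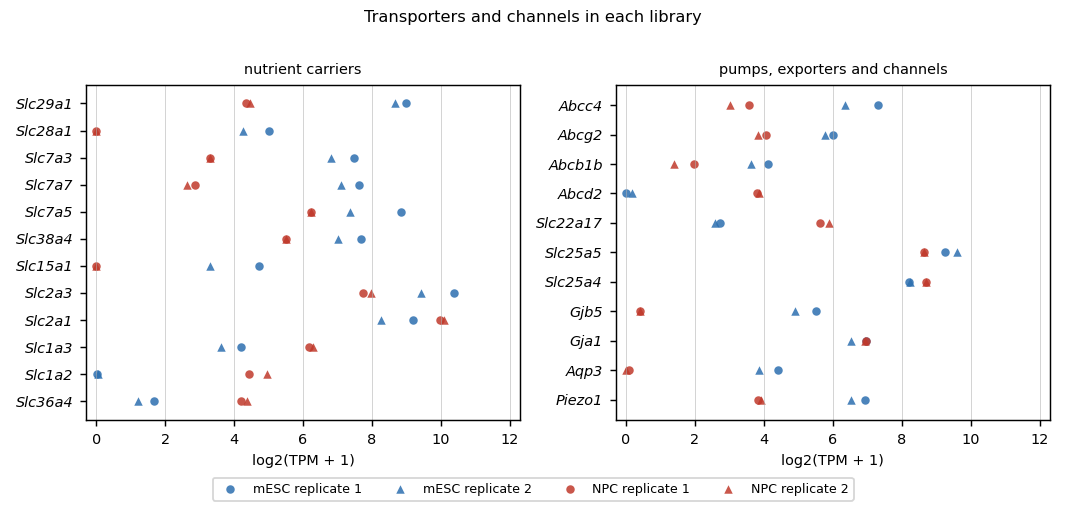
Levels of 23 transporter and channel genes in each library, as log2(TPM + 1), with mESC in blue and NPC in red and 1 point per library. Nucleoside and cationic amino acid carriers and Gjb5 sit far apart between the groups, while the Gja1 points overlap.

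Adhesion and matrix genes rose more often than they fell. Of 440 tested members, 199 rose and 48 fell (115 and 26 in all 5 fits), with a median log2 fold change of 0.83 against 0.18 for all genes. All tested genes leaned the same way, with 26.0% rising and 14.0% falling. After median-of-ratios scaling 184 members rose and 62 fell. The cadherins exchanged members. Cdh1, E-cadherin of epithelia, went from 358 and 198 TPM to 44.3 and 25.8 TPM and lost its call without mESC replicate 1 (log2 fold change -2.52) and without mESC replicate 2 (log2 fold change -3.36) and without NPC replicate 2 (log2 fold change -2.56). Cdh3, P-cadherin, fell from 69.2 and 31.9 TPM to 7.44 and 5.83 TPM. Cdh2 (ENSMUSG00000024304.13, chromosome 18, 16588877 to 16809246), N-cadherin of the neural tube, rose from 5.72 and 9.52 TPM to 114 and 119 TPM (adjusted p = 8.22e-05, log2 fold change 3.80, SE 0.221). The type II cadherins Cdh8 and Cdh11 rose as well, Cdh8 from 0 and 0.016 TPM to 20.7 and 22.4 TPM and Cdh11 from 0.496 and 0.47 TPM to 9.91 and 19.7 TPM. In all, 11 of 18 tested members rose and 4 fell (4 and 1 in all 5 fits).

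Among the protocadherins, the clustered genes rose from very low levels. In the clustered family 31 of 53 tested members rose and 1 fell (17 and 1 in all 5 fits). Pcdhb17 rose from 0.0328 and 0.138 TPM to 7.97 and 11.6 TPM and Pcdhb11 from 0 and 0.0277 TPM to 5.04 and 9.67 TPM. Pcdhga12 was the member that fell, from 7.46 and 6.95 TPM to 2.14 and 1.88 TPM. The members of a cluster are near copies of each other, and those of the gamma cluster share their last exons, so how reads were shared out among them is uncertain. Of the non-clustered protocadherins 8 of 11 tested members rose and 0 fell (5 and 0 in all 5 fits, 0 lower at an unadjusted p under 0.05 by limma), led by Pcdh8 from 0.233 and 0.14 TPM to 14.3 and 32.1 TPM and Pcdh18 from 1.55 and 0.729 TPM to 20.5 and 23.4 TPM. The summed level in mESC was 16.0 and 14.7 TPM for the non-clustered list and 88.1 and 62.5 TPM for the clustered list. Members near 0 in mESC could enter the test through NPC or NC libraries alone. They had little room to fall, so the low counts of falling members in both families carry little weight.

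Immunoglobulin and leucine-rich repeat proteins of the neuronal surface rose broadly. Of the immunoglobulin cell adhesion molecules 20 of 39 tested members rose and 5 fell (11 and 3 in all 5 fits). Cntn2, an adhesion protein of early axons, rose from 4.22 and 1.96 TPM to 65.7 and 147 TPM (adjusted p = 3.68e-04, log2 fold change 4.66, SE 0.414), Nrcam rose from 0.438 and 0.397 TPM to 27.4 and 30.8 TPM, and L1cam rose from 4.49 and 2.5 TPM to 23.6 and 24 TPM. The largest falls in the list were of Icam1 from 84.7 and 49.4 TPM to 3.01 and 1.47 TPM and Pecam1 from 34.8 and 19.7 TPM to 1.57 and 1.54 TPM, adhesion proteins of vessels and leukocytes. Of the teneurin, latrophilin and leucine-rich repeat group 20 of 33 tested members rose and 1 fell (10 and 1 in all 5 fits). Lrrn1 rose from 1.6 and 1.3 TPM to 58.3 and 69.8 TPM and Adgrl3, latrophilin 3, from 0.206 and 0.349 TPM to 15.3 and 20.4 TPM.

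Epithelial contacts gave a mixed picture. None of the 10 tested desmosome genes rose and 3 fell by limma (0 higher at an unadjusted p under 0.05), with a median log2 fold change of -0.54. After median-of-ratios scaling 6 fell, and after quantile normalization 5. Jup, plakoglobin, fell from 177 and 183 TPM to 40.6 and 35.2 TPM. Tight junction proteins split, as 5 of 19 tested members rose and 3 fell (3 and 2 in all 5 fits, 3 and 4 after median-of-ratios scaling). Crb2, a protein of the apical membrane, rose from 1.27 and 1.04 TPM to 42.2 and 46.3 TPM. The simple epithelial keratins Krt8 and Krt18 stood at 114 and 54.1 TPM in mESC and 135 and 83.5 TPM in NPC and at 67.1 and 29.8 TPM in mESC and 137 and 91.4 TPM in NPC and did not pass (adjusted p = 0.649 and 0.168). Both were higher in mESC replicate 1 than in replicate 2, the same direction as in the endoderm list.

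Integrins, the receptors for matrix, showed no common direction, as 5 of 24 tested members rose and 5 fell (3 and 1 in all 5 fits, 4 and 7 after quantile normalization). Itgb8, which frees latent TGF-beta, rose from 0.106 and 0.116 TPM to 25.6 and 25.5 TPM (adjusted p = 2.96e-04, log2 fold change 4.58, SE 0.384). Itga6, a laminin receptor subunit, fell from 156 and 143 TPM to 39.5 and 52 TPM and lost its call without mESC replicate 1 (log2 fold change -1.64) and without mESC replicate 2 (log2 fold change -1.76). Itgb7, a leukocyte subunit, fell from 26.5 and 16.9 TPM to 0.761 and 0.566 TPM. Itgb3bp, a centromere protein that the name search took in, is counted among the 5 that rose.

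Collagens rose more often than they fell, but the abundant collagen IV chains did not hold their calls. Of the collagen genes 18 of 33 tested members rose and 2 fell (10 and 1 in all 5 fits). Col2a1 (ENSMUSG00000022483.15, chromosome 15, 97975602 to 98004695), a fibrillar collagen of cartilage, notochord and neuroepithelium, rose from 3.02 and 3.73 TPM to 116 and 101 TPM (adjusted p = 4.28e-05, log2 fold change 4.65, SE 0.22). Col4a5 rose from 1.15 and 0.26 TPM to 15.3 and 22.1 TPM. Col4a1, a main chain of basement membranes, stood at 331 and 67.5 TPM in mESC, against 867 and 566 TPM in NPC, and Col4a2 at 168 and 32.8 TPM in mESC, against 520.2 and 333 TPM in NPC. In both, mESC replicate 1 was far above replicate 2. The call of Col4a1 was lost without mESC replicate 2 (log2 fold change 1.08) and without NPC replicate 1 (log2 fold change 1.91) and without NPC replicate 2 (log2 fold change 2.53) and that of Col4a2 without NPC replicate 1 (log2 fold change 2.15) and without NPC replicate 2 (log2 fold change 2.79).

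The laminins that assemble with collagen IV showed the same split. Lama1 stood at 368 and 73.9 TPM in mESC, against 262 and 196 TPM in NPC, Lamb1 at 334 and 86 TPM in mESC and 233 and 163 TPM in NPC and Lamc1 at 474 and 179 TPM in mESC and 207 and 167 TPM in NPC. In each of these 3, mESC replicate 1 was the highest of the 4 libraries, and none passed the test (adjusted p = 0.637, 0.828 and 0.279). In the endoderm list mESC replicate 1 was likewise above mESC replicate 2. Dab2 was at 109.7 and 24.9 TPM in mESC and 74.4 and 46.7 TPM in NPC, Cubn at 81.1 and 13.2 TPM in mESC and 26.1 and 19.8 TPM in NPC, Gata4 at 38.9 and 8.42 TPM in mESC and 58.1 and 40.2 TPM in NPC, Gata6 at 20.3 and 5.76 TPM in mESC and 16 and 11.5 TPM in NPC and Sox7 at 8.87 and 2.8 TPM in mESC and 6.84 and 7.83 TPM in NPC. Afp and Ttr were listed at 0 in mESC replicate 2 and at low levels elsewhere, Ttr at 3.45 and 0 TPM in mESC and 3.96 and 1.49 TPM in NPC. What part such cells had in the matrix results was not tested. Nid2 and Fn1, nidogen 2 and fibronectin, fell, Nid2 from 362 and 183 TPM to 90.7 and 76.2 TPM and Fn1 from 793 and 400.0 TPM to 175 and 152 TPM. Both lost the call when 1 library was left out, Nid2 without NPC replicate 2 (log2 fold change -1.50) and Fn1 in each fit without 1 library, where the log2 fold change ranged from -2.27 to -1.29. Fbn2, fibrillin 2, was among the clearest gains, from 1.23 and 1.82 TPM to 37.6 and 37.9 TPM (adjusted p = 6.31e-05, log2 fold change 3.95, SE 0.212).

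**Figure D3:**
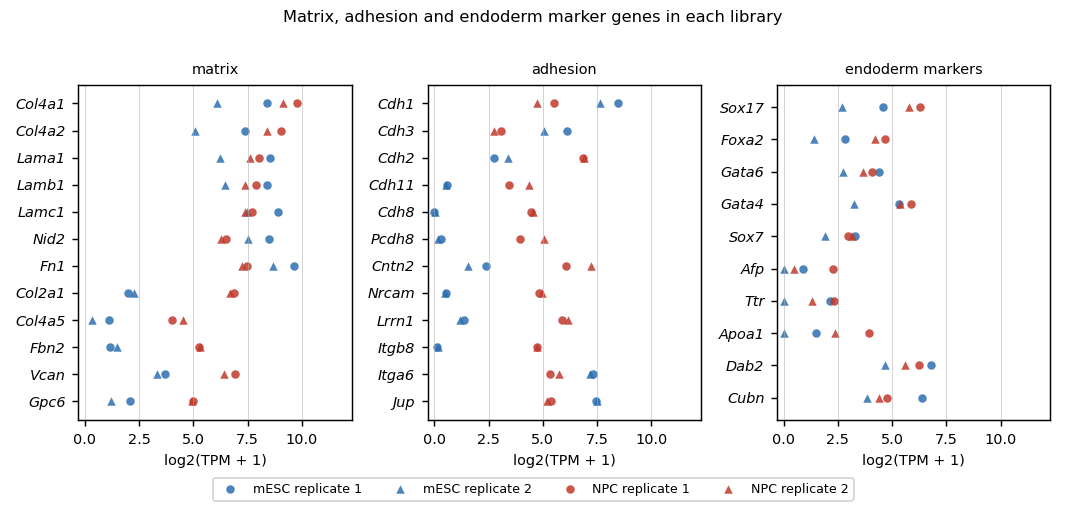
Levels of matrix genes, adhesion genes and the 10 endoderm markers in each library, as log2(TPM + 1), mESC in blue and NPC in red. For Col4a1, Col4a2, the laminins and the endoderm markers the blue circle of mESC replicate 1 lies to the right of the blue triangle of mESC replicate 2, while Cdh2, Cdh8, Fbn2 and Col2a1 separate by group.

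The sugar-bearing surface changed with the adhesion proteins. Of the syndecans and glypicans, core proteins of heparan sulfate, 8 of 10 tested members rose and 1 fell (5 and 0 in all 5 fits). Gpc6 rose from 3.19 and 1.31 TPM to 30.9 and 29.3 TPM and Sdc3 from 2.55 and 1.72 TPM to 25.5 and 31.7 TPM. Gpc2 is listed under 2 gene IDs, both of which rose, and the larger went from 18.5 and 11 TPM to 87.2 and 113 TPM. Gpc3 and Gpc4 parted. Gpc3 stood at 132 and 49 TPM in mESC and 259 and 272 TPM in NPC with its call lost without NPC replicate 1 (log2 fold change 1.75) and without NPC replicate 2 (log2 fold change 1.67), and Gpc4 at 22.3 and 23.8 TPM in mESC and 13 and 14.3 TPM in NPC with its call lost without mESC replicate 2 (log2 fold change -0.67) and without NPC replicate 1 (log2 fold change -0.65) and without NPC replicate 2 (log2 fold change -0.78). Of the chondroitin sulfate genes 14 of 25 tested members rose and 1 fell (5 and 1 in all 5 fits), led by Vcan, versican, from 12 and 9.13 TPM to 121 and 83.7 TPM and Ncan, neurocan, from 2.21 and 2.59 TPM to 19.1 and 34 TPM. Ndst1, which starts the sulfation of heparan chains, rose from 18.1 and 15.2 TPM to 93.6 and 86.1 TPM (adjusted p = 1.38e-04, log2 fold change 2.37, SE 0.16).

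Sialyltransferases and fucosyltransferases finish the sugar chains of surface proteins and lipids, and 15 of 26 tested members rose and 2 fell (8 and 0 in all 5 fits, 14 and 5 after quantile normalization). St8sia2, which builds the polysialic acid of NCAM in the embryonic brain, rose from 0 and 0.192 TPM to 17.1 and 21.6 TPM (adjusted p = 7.39e-05, log2 fold change 4.21, SE 0.239). Its substrate gene Ncam1 stood at 51.7 and 24.6 TPM in mESC and 60.3 and 86 TPM in NPC and did not pass (adjusted p = 0.0609). St6gal1 rose from 6.09 and 6.0 TPM to 53.9 and 62.5 TPM and St3gal1 from 2.06 and 0.524 TPM to 25.3 and 24.3 TPM. Fut9 and Fut4, which make the SSEA-1 sugar of mouse stem cells, stood at 9.75 and 7.62 TPM in mESC and 4.04 and 4.18 TPM in NPC (adjusted p = 0.054) and at 0.484 and 0.57 TPM in mESC and 4.6 and 2.69 TPM in NPC. B4galnt1, which starts the complex gangliosides, rose from 6.48 and 3.21 TPM to 30 and 29.3 TPM, and St8sia1, which makes the ganglioside GD3 of neural stem cells, rose from 7.54 and 7.12 TPM to 18.7 and 26.5 TPM.

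Among tetraspanins, which organise other membrane proteins, 11 of 24 tested members rose and 3 fell (10 and 2 in all 5 fits). Cd9 (ENSMUSG00000030342.8, chromosome 6, 125460266 to 125494791) stood at 684 and 403 TPM in mESC, against 66.5 and 38.5 TPM in NPC (adjusted p = 4.98e-04, log2 fold change -3.35, SE 0.322). Tspan13 rose from 27.7 and 19.1 TPM to 164 and 152 TPM and Tspan3 from 90.5 and 69.6 TPM to 263 and 266 TPM. Of the surface antigens used to sort these cells, Cd24a rose from 26.3 and 44.1 TPM to 426 and 435 TPM, Prom1, also known as CD133, rose from 5.03 and 6.0 TPM to 74.9 and 60.4 TPM, and Alpl, the alkaline phosphatase of stem cells, fell from 93.1 and 63.4 TPM to 14.8 and 9.16 TPM. Epcam stood at 168 and 109 TPM in mESC and 61.2 and 36.8 TPM in NPC and lost its call in each fit without 1 library, where the log2 fold change ranged from -1.85 to -1.13.

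Signalling genes rose more often than they fell, with 270 of 657 tested members rising and 107 falling (138 and 48 in all 5 fits). All tested genes leaned the same way, with 26.0% rising and 14.0% falling. The median log2 fold change was 0.57 for the signalling genes, against 0.18 for all genes. After median-of-ratios scaling 233 rose and 128 fell, and these medians were 0.38 and -0.01. More falls than rises were counted among feedback and target genes of the FGF and ERK pathway, in which 3 of 21 tested members rose and 11 fell (2 and 5 in all 5 fits). Spry4 encodes an inhibitor of receptor tyrosine kinase signalling that the pathway itself switches on. It stood at 107 and 113 TPM in mESC, against 1.73 and 1.87 TPM in NPC (adjusted p = 8.52e-05, log2 fold change -5.31, SE 0.313). Spry2 fell from 132 and 127 TPM to 15.7 and 18.2 TPM and the ETS factors Etv5 and Etv4 fell from 163 and 196 TPM to 14.7 and 11.3 TPM and from 132 and 109 TPM to 27 and 26.4 TPM. In all 4, both NPC libraries lay below both mESC libraries, which also held for uncalled genes such as Slc16a1. Dusp6, the ERK phosphatase, fell less, from 78.3 and 84.6 TPM to 36 and 42.6 TPM, and lost its call in each fit without 1 library, where the log2 fold change ranged from -1.16 to -0.92. Phlda1 and Spred3 rose, from 11 and 6.67 TPM to 46.9 and 40.7 TPM and from 8.58 and 7.04 TPM to 33.3 and 40 TPM.

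Of the Ras family GTPases 7 of 25 tested members rose and 5 fell (2 and 3 in all 5 fits, 6 and 7 after quantile normalization). Eras, an embryonic RAS that feeds the PI3-kinase pathway, fell from 42 and 41.5 TPM to 1.13 and 1.83 TPM (adjusted p = 1.08e-04, log2 fold change -4.12, SE 0.258), and Mras fell from 30.5 and 39.9 TPM to 4.71 and 6.78 TPM. Nras, a RAS of most cells, did not pass, at 93.9 and 97.4 TPM in mESC and 83.2 and 92.5 TPM in NPC (adjusted p = 0.527).

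The insulin and IGF pathway gained at several steps, and 16 of 27 tested members rose and 2 fell (13 and 1 in all 5 fits). Its growth factor Igf2 rose from 25.1 and 15.4 TPM to 267 and 385 TPM (adjusted p = 1.30e-04, log2 fold change 3.96, SE 0.263), and its receptor Igf1r rose from 24.3 and 16.9 TPM to 70.2 and 72.2 TPM. The receptor adaptors Irs1 and Irs2 rose, Irs1 from 0.91 and 0.653 TPM to 15.4 and 19.1 TPM, and so did the kinase Akt1 from 88.9 and 72.7 TPM to 229.9 and 227 TPM. Among the secreted binding proteins that hold IGF, Igfbpl1 went from 2.18 and 2.55 TPM to 59.9 and 104 TPM, Igfbp5 from 1.84 and 1.7 TPM to 48.9 and 58 TPM and Igfbp4 from 7.11 and 5.1 TPM to 93.6 and 116 TPM. Igfbp2 stood at 496 and 222 TPM in mESC and 617 and 874 TPM in NPC and did not pass (adjusted p = 0.187). Igfals, which carries IGF in serum, fell from 4.75 and 3.61 TPM to 0.267 and 0.62 TPM.

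Of the other growth factors, Mdk, midkine, a heparin-binding factor of the embryonic nervous system, gave the largest gain in TPM of any protein-coding gene with a call in all 5 fits. It rose from 488 and 385 TPM to 2599 and 2092 TPM (adjusted p = 2.02e-04, log2 fold change 2.43, SE 0.183). Its relative Ptn, pleiotrophin, rose from 0.928 and 3.4 TPM to 36.2 and 75.6 TPM. The shared receptor Ptprz1 stood at 0.166 and 0.65 TPM in mESC and 6.35 and 3.96 TPM in NPC, with a call lost in each fit without 1 library, where the log2 fold change ranged from 1.84 to 2.41. In its family of receptor tyrosine phosphatases 11 of 17 tested members rose and 1 fell (5 and 1 in all 5 fits), with Ptprd from 0.687 and 0.628 TPM to 24.6 and 33.2 TPM and Ptprs from 95.8 and 60.3 TPM to 255 and 277 TPM. Among vascular factors, Flt1 and Nrp1 rose, from 2.28 and 1.23 TPM to 41.3 and 31.5 TPM and from 0.889 and 0.503 TPM to 16.3 and 17.7 TPM. Vegfa stood at 123 and 31.6 TPM in mESC and 243 and 257 TPM in NPC, with mESC replicate 1 far above replicate 2 and a call lost without NPC replicate 1 (log2 fold change 2.02) and without NPC replicate 2 (log2 fold change 1.95). Pdgfa, a ligand of mesenchymal and glial cells, fell from 52.7 and 48.9 TPM to 15.3 and 10.3 TPM.

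G protein genes rose more often than they fell. Of the G protein subunits 16 of 31 tested members rose and 3 fell (7 and 3 in all 5 fits). Gnas, the alpha subunit that activates adenylate cyclase, rose from 137 and 171 TPM to 869.6 and 675 TPM (adjusted p = 4.32e-04, log2 fold change 2.31, SE 0.215). Gnao1, the main alpha subunit of neurons, rose from 2.68 and 2.49 TPM to 35.1 and 47.4 TPM, and Gnai2 rose from 253 and 217 TPM to 602 and 612 TPM. The 3 that fell were Gna15, an alpha subunit of blood cells, Gna14, and Gngt2, a gamma subunit of cone photoreceptors. Gna15 went from 28.8 and 27.1 TPM to 0.162 and 0.146 TPM (adjusted p = 9.33e-05, log2 fold change -4.65, SE 0.28), Gna14 from 10.4 and 10 TPM to 0.248 and 0.513 TPM, and Gngt2 from 12.7 and 9.28 TPM to 0.115 and 0 TPM, where 0 is as listed. Of the RGS genes, which end G protein signals, 10 of 16 tested members rose and 0 fell (5 and 0 in all 5 fits, 0 lower at an unadjusted p under 0.05 by limma). Rgs16 rose from 1.69 and 3.43 TPM to 21.6 and 38.3 TPM. In the cyclic AMP branch, Adcy6 rose from 5.9 and 4.36 TPM to 41 and 44.8 TPM. Among protein kinase A and C genes and their anchors 17 of 29 tested members rose and 4 fell (9 and 2 in all 5 fits, 13 and 7 after median-of-ratios scaling). Prkar2b, a regulatory subunit of neurons, rose from 4.12 and 4.06 TPM to 34 and 39.1 TPM (adjusted p = 0.00157, log2 fold change 2.88, SE 0.372), and Prkar1a rose from 74.5 and 73.7 TPM to 181 and 184 TPM.

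Of the genes of the Hippo pathway 14 of 29 tested members rose and 3 fell (9 and 1 in all 5 fits, 12 and 6 after median-of-ratios scaling). The giant cadherins Dchs1, Fat4 and Fat3 rose, Dchs1 from 0.573 and 0.856 TPM to 37 and 48 TPM and Fat4 from 0.185 and 0.151 TPM to 31.9 and 24.9 TPM (adjusted p = 4.41e-05, log2 fold change 4.64, SE 0.224). The kinases Lats1 and Lats2 rose, from 11.2 and 10.4 TPM to 34.8 and 36.5 TPM and from 4.08 and 3.87 TPM to 16.2 and 19.2 TPM. Lats2 overlaps more abundant genes. The one on the opposite strand stood at 127 and 150 TPM in mESC and 85.7 and 112 TPM in NPC. The one on its own strand stood at 72.2 and 70.7 TPM in mESC and 29.9 and 33.1 TPM in NPC. The co-activator Yap1 stood at 82.2 and 112 TPM in mESC and 123 and 119 TPM in NPC and did not pass (adjusted p = 0.177). Of its DNA-binding partners, Tead4 fell from 45.7 and 32.1 TPM to 3.24 and 1.49 TPM, Tead3 rose from 9.45 and 5.72 TPM to 37 and 42.9 TPM, and Tead2 rose from 113 and 166 TPM to 288 and 273 TPM with a call lost without NPC replicate 1 (log2 fold change 0.99) and without NPC replicate 2 (log2 fold change 1.07).

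Chemokine and innate genes moved in small sets. Ackr3 and Cxcr4, the 2 receptors for the chemokine CXCL12, rose from 0.714 and 1.62 TPM to 80 and 56.4 TPM (adjusted p = 7.55e-05, log2 fold change 5.01, SE 0.285) and from 1.99 and 0.942 TPM to 24.3 and 22.9 TPM. Of the interferon and innate response genes 7 of 32 tested members rose and 8 fell (4 and 3 in all 5 fits, 5 and 11 after quantile normalization). Ifitm1, an interferon-induced membrane protein that restricts viruses, fell from 279 and 275 TPM to 10.4 and 11.3 TPM (adjusted p = 0.00154, log2 fold change -4.56, SE 0.586). Bst2, tetherin, stood at 291 and 170.4 TPM in mESC and 24.1 and 17.7 TPM in NPC and lost its call without mESC replicate 1 (log2 fold change -2.98) and without NPC replicate 2 (log2 fold change -3.15). The class I antigens H2-D1 and H2-K1 rose, from 22.3 and 15 TPM to 69 and 60.9 TPM and from 45.2 and 29.4 TPM to 97.6 and 113 TPM. Calcium-binding annexins and S100 proteins fell more often than they rose, and 2 of 17 tested members rose and 7 fell (0 and 5 in all 5 fits). Anxa11 fell from 56.4 and 44.9 TPM to 4.35 and 4.45 TPM, and S100a10 from 288 and 247 TPM to 41.4 and 21.1 TPM.

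**Figure D4:**
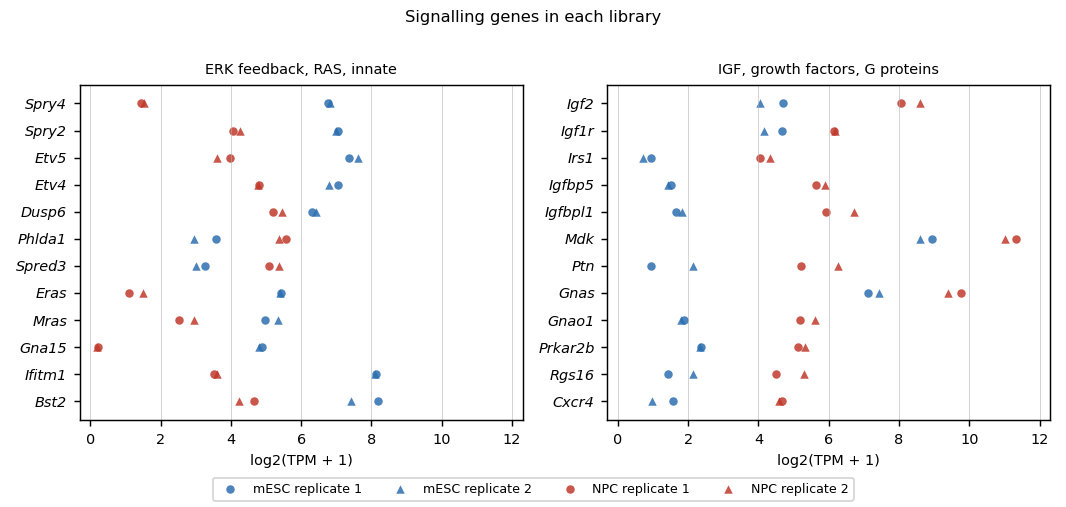
Levels of 24 signalling genes in each library, as log2(TPM + 1), mESC in blue and NPC in red. The ERK feedback genes Spry4, Spry2, Etv5, Etv4 and Dusp6 and the genes Eras, Gna15 and Ifitm1 are higher in the blue points, Phlda1 and Spred3 in the red points, and the 12 genes of the right panel are higher in the red points.

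Of 683 tested metabolic genes, 149 rose and 146 fell (67 and 55 in all 5 fits). Their median log2 fold change of 0.01 lay below the 0.18 of all genes, of which more rose than fell. After median-of-ratios scaling 123 rose and 201 fell, with a median of -0.19 against -0.01 for all genes. Relative to the bulk of genes the group thus leaned to the falling side. A steep loss was that of Tdh (ENSMUSG00000021953.13, chromosome 14, 63492347 to 63509092), threonine dehydrogenase, which feeds glycine and acetyl-CoA in mouse stem cells. It stood at 669 and 594 TPM in mESC, against 9.54 and 7.57 TPM in NPC (adjusted p = 1.43e-05, log2 fold change -6.05, SE 0.193). Folate enzymes were lower as well. Shmt1 went from 189 and 197 TPM to 53.6 and 58.7 TPM and Mthfd1 had a log2 fold change of -1.66, with adjusted p = 2.80e-04. Cbs, which commits homocysteine to cysteine synthesis, stood at 33.7 and 33 TPM in mESC and 3.01 and 3.27 TPM in NPC and lost its call in each fit without 1 library, where the log2 fold change ranged from -3.10 to -3.01. Over serine, glycine, threonine and folate genes 4 of 26 tested members rose and 10 fell (2 and 3 in all 5 fits). Phgdh, the first enzyme of serine synthesis, stood at 199 and 154 TPM in mESC and 233 and 250.2 TPM in NPC and did not pass (adjusted p = 0.0592). Mthfd2l, a mitochondrial folate enzyme, rose from 2.47 and 3.39 TPM to 29.3 and 29.9 TPM.

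Of purine and pyrimidine genes 7 of 36 tested members rose and 15 fell (2 and 8 in all 5 fits, 5 and 20 after median-of-ratios scaling), and the median log2 fold change was -0.44. Gart, which carries 3 steps of purine synthesis, fell from 334 and 402 TPM to 112 and 111 TPM (adjusted p = 2.67e-04, log2 fold change -1.71, SE 0.14). Atic and Pfas of the same pathway fell from 148 and 177 TPM to 60.8 and 57.9 TPM and from 174 and 182 TPM to 76.1 and 80.8 TPM. Cad and Dhodh of pyrimidine synthesis fell from 201 and 225 TPM to 105 and 101 TPM and from 104 and 112 TPM to 28 and 33.8 TPM. Impdh2, which leads to GTP, fell from 549.8 and 527 TPM to 316 and 274 TPM. Among the 7 that rose were Dpysl2, a microtubule-binding relative of a pyrimidine enzyme that guides axons, from 11.6 and 16 TPM to 66.1 and 78.4 TPM, and Dpyd, which breaks pyrimidines down, from 0.225 and 0.0596 TPM to 2.79 and 2.36 TPM. Of the polyamine enzymes, Odc1 fell from 356 and 487 TPM to 173 and 177 TPM and Srm fell from 277 and 420.1 TPM to 118 and 137 TPM. In the methionine, polyamine and creatine list 6 of 24 tested members rose and 7 fell (2 and 4 in all 5 fits, 5 and 9 after median-of-ratios scaling). Creatine kinase Ckb, which buffers ATP in brain, rose from 150.2 and 198 TPM to 652 and 1136 TPM (adjusted p = 0.00282, log2 fold change 2.31, SE 0.348).

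Amino acid enzymes moved in both directions. Ass1, which makes arginine from citrulline and aspartate, fell from 123 and 118 TPM to 12.1 and 9.14 TPM (adjusted p = 0.00185, log2 fold change -3.40, SE 0.458). Arg1, which splits arginine to ornithine, reached 60.7 and 40.8 TPM in NPC from a listed 0 in both mESC libraries (adjusted p = 1.32e-04). Oat, which uses ornithine, rose from 54.6 and 59.4 TPM to 133 and 135 TPM. A gene that overlaps Oat on the same strand also rose, from 9.85 and 10 TPM to 67.7 and 82.3 TPM, so their reads may be shared. Among the enzymes of glutamate and glutamine turnover, Glud1 fell from 287 and 216 TPM to 102 and 102 TPM, Got1 fell from 227 and 227 TPM to 81.5 and 77.6 TPM and Gls2, a glutaminase, fell from 52.2 and 34.1 TPM to 6.09 and 6.93 TPM. A gene that overlaps Gls2 on the opposite strand stood at 24.9 and 27.3 TPM in mESC and 19.5 and 18.2 TPM in NPC. Abat, which breaks GABA down, rose from 1.89 and 1.97 TPM to 13.2 and 18.3 TPM. In the glutamine, proline, arginine and aspartate list 6 of 25 tested members rose and 10 fell (4 and 6 in all 5 fits). The first step of branched-chain amino acid breakdown fell in both compartments, with cytosolic Bcat1 from 177 and 181 TPM to 52.2 and 61.9 TPM and mitochondrial Bcat2 from 215 and 188 TPM to 28.4 and 26 TPM (adjusted p = 8.97e-05, log2 fold change -2.84, SE 0.17). In that breakdown list 1 of 20 tested members rose and 7 fell (0 and 4 in all 5 fits). Of the aminoacyl-tRNA synthetases, which load amino acids onto tRNA, 0 of 39 tested members rose and 9 fell (0 and 3 in all 5 fits, 1 higher at an unadjusted p under 0.05 by limma). Cars2, the mitochondrial cysteine enzyme, fell from 32.5 and 42.2 TPM to 14.9 and 13.1 TPM. A gene that overlaps Cars2 on the opposite strand stood at 59.2 and 48.2 TPM in mESC and 77.2 and 75.6 TPM in NPC. After median-of-ratios scaling 21 of the 39 synthetases fell, against 9 as deposited.

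Of the glutathione, thioredoxin and antioxidant genes 8 of 36 tested members rose and 14 fell (4 and 7 in all 5 fits). Nqo1, a quinone reductase under control of NRF2, fell from 48.6 and 44.6 TPM to 2.1 and 2.88 TPM (adjusted p = 9.16e-04, log2 fold change -3.78, SE 0.426). Gsr, glutathione reductase, fell from 138 and 149.6 TPM to 49.4 and 45.6 TPM and Prdx1 from 478 and 658 TPM to 231 and 211 TPM. Of the glutathione peroxidases, Gpx1 fell from 145 and 229.7 TPM to 66.1 and 74.8 TPM and Gpx7 from 45.2 and 37.2 TPM to 8.24 and 7.23 TPM, while Gpx8 rose from 6.39 and 4.29 TPM to 30.7 and 38.6 TPM. The secreted Gpx3 stood at 42.1 and 31.6 TPM in mESC and 244 and 128 TPM in NPC with its call lost without mESC replicate 2 (log2 fold change 2.04). Gsta4, which detoxifies lipid aldehydes, fell from 400.4 and 543 TPM to 123 and 131 TPM. Mt1, metallothionein 1, stood at 212 and 124 TPM in mESC and 54.9 and 42.6 TPM in NPC and Ftl1, the ferritin light chain, fell from 1038 and 1040.2 TPM to 369 and 482 TPM.

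Of the glycolysis genes 5 of 24 tested members rose and 2 fell (3 and 1 in all 5 fits, 4 and 4 after median-of-ratios scaling). Hk2, the inducible hexokinase, fell from 290.3 and 261 TPM to 87.1 and 114 TPM (adjusted p = 0.001, log2 fold change -1.46, SE 0.168). Hk1, the brain hexokinase, stood at 30.6 and 17.8 TPM in mESC and 23.5 and 30.9 TPM in NPC (adjusted p = 0.626). Pkm, the last step, stood at 2402 and 2144 TPM in mESC and 2293 and 2418 TPM in NPC (adjusted p = 0.876). Pfkfb3, which sets the level of the activator of phosphofructokinase, rose from 15.3 and 7.43 TPM to 61.8 and 81.1 TPM. Eno3, the enolase of muscle, rose from 16.8 and 16.2 TPM to 51.9 and 57.9 TPM. Pyruvate dehydrogenase kinases, which close the entry into the mitochondrion, moved in both directions. Pdk3 rose from 30.9 and 32.8 TPM to 94.2 and 91.8 TPM, Pdk4 fell from 11.8 and 7.49 TPM to 0.339 and 0.31 TPM, and Pdk1 stood at 186 and 141 TPM in mESC and 53.2 and 64.7 TPM in NPC without a call (adjusted p = 0.102). The NC libraries, which enter the spread of the test, lay apart for Pdk1, at 10.4 and 1.69 TPM.

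Of the respiratory chain subunits 3 of 78 tested members rose and 13 fell (0 and 1 in all 5 fits, 1 and 17 after median-of-ratios scaling). The median log2 fold change of 0.02 became -0.21 after median-of-ratios scaling. Cox7a1, a subunit of heart and muscle, was the one that held its fall in all 5 fits, from 24.6 and 23.6 TPM to 3.93 and 2.68 TPM. Of the genes of fatty acid synthesis, elongation and desaturation 10 of 28 tested members rose and 3 fell (4 and 2 in all 5 fits, 10 and 5 after median-of-ratios scaling). Of those of fatty acid oxidation and ketone bodies 8 of 31 tested members rose and 4 fell (2 and 2 in all 5 fits, 5 and 7 after median-of-ratios scaling). Cpt1a, the gate of mitochondrial oxidation, fell from 65 and 39.3 TPM to 5.11 and 7.68 TPM (adjusted p = 0.00198, log2 fold change -2.82, SE 0.388). Acsl1, which activates fatty acids, fell from 39.4 and 31.3 TPM to 9.5 and 9.78 TPM and Acsl6, its neuronal relative, rose from 3.52 and 2.08 TPM to 13.4 and 13.8 TPM. Elovl2 and Elovl4, which elongate polyunsaturated and very long chains, rose from 2.27 and 1.52 TPM to 9.26 and 8.15 TPM and from 10 and 9.28 TPM to 31.3 and 36.4 TPM. Of the fatty acid binding proteins, Fabp7 of radial glia reached 34.1 and 68.1 TPM in NPC from a listed 0 in both mESC libraries, and Fabp5 rose from 25.9 and 37 TPM to 164 and 165 TPM. Fabp3 stood at 268 and 130.3 TPM in mESC and 45.9 and 27.3 TPM in NPC with a call lost without mESC replicate 1 (log2 fold change -1.85) and without NPC replicate 2 (log2 fold change -2.00). Of the glycogen genes 11 of 22 tested members rose and 4 fell (4 and 1 in all 5 fits). Gyg, which primes a glycogen particle, rose from 10.3 and 8.2 TPM to 41 and 39.2 TPM, and Gbe1, which branches it, rose from 4.35 and 4.51 TPM to 18.1 and 32.5 TPM (adjusted p = 0.00214, log2 fold change 2.22, SE 0.312). Car14, a carbonic anhydrase of neurons, rose from 2.67 and 2.86 TPM to 115 and 113 TPM. Its gene overlaps Aph1a on the opposite strand, which stood at 34.8 and 26.6 TPM in mESC and 52.7 and 50.2 TPM in NPC and whose own call was lost without NPC replicate 1 (log2 fold change 0.70) and without NPC replicate 2 (log2 fold change 0.77).

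**Figure D5:**
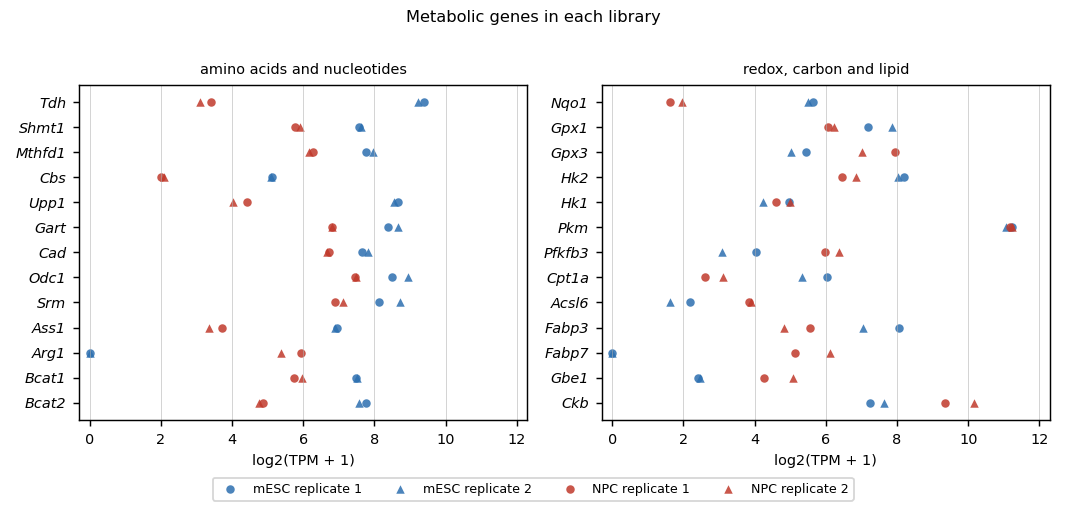
Levels of 26 metabolic genes in each library, as log2(TPM + 1), mESC in blue and NPC in red. Tdh, Upp1, Ass1 and Nqo1 are lower in the red points, Arg1 and Fabp7 are at 0 in the blue points, and the Pkm and Hk1 points overlap.

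Retinoid carriers and the enzymes that destroy retinoic acid gave large gains. Crabp2 and Crabp1, which carry retinoic acid in the cytosol, rose from 5.29 and 4.92 TPM to 779.9 and 661 TPM and from 44.9 and 52.8 TPM to 847 and 537 TPM. The P450 enzymes Cyp26b1 and Cyp26a1 rose from 0.582 and 0.436 TPM to 574 and 734 TPM and from 14 and 2.25 TPM to 519 and 443 TPM. With Mdk, Ckb and Gnas, the genes Crabp1, Crabp2 and Cyp26b1 were among the 10 protein-coding genes that gained most TPM with a call in all 5 fits. That set also holds Nrep, a small protein of regenerating neurons, from 6.19 and 8.24 TPM to 438 and 656 TPM, Ccnd2, a G1 cyclin, from 17.1 and 38.5 TPM to 601 and 482 TPM, and Hoxb6. The 10 that lost most TPM include Chchd10, a mitochondrial protein of the cristae, from 810.0 and 685 TPM to 29.8 and 25.8 TPM (adjusted p = 1.43e-05, log2 fold change -4.70, SE 0.149), Mkrn1, a ubiquitin ligase, from 918 and 734 TPM to 104 and 169 TPM, and Trim28, the co-repressor of zinc finger proteins, from 1028 and 1323 TPM to 568 and 554 TPM.

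Several chaperones fell. Hsp90aa1, the inducible HSP90, fell from 1084 and 1486 TPM to 459 and 401 TPM (adjusted p = 0.00124, log2 fold change -1.56, SE 0.19), and the small heat shock proteins Hspb1 and Hspb8 fell from 233 and 247 TPM to 5.54 and 6.53 TPM and from 29.1 and 21.8 TPM to 1.04 and 1.64 TPM. Over heat shock proteins and DnaJ co-chaperones 14 of 77 tested members rose and 21 fell (4 and 9 in all 5 fits, 10 and 25 after median-of-ratios scaling). In the Trim family, Trim6, a stem cell ubiquitin ligase, fell from 87.8 and 79 TPM to 6.75 and 5.31 TPM and Trim9 rose from a listed 0 in both mESC libraries to 19.8 and 22.9 TPM. Fbxo15, an F-box gene long used as a stem cell reporter, fell from 185 and 221 TPM to 3.16 and 2.65 TPM, while Klhl genes, adaptors of another ubiquitin ligase, moved the other way, and 19 of 29 tested members rose and 1 fell (7 and 0 in all 5 fits, 13 and 3 after median-of-ratios scaling). The reads of Fbxo15 may be shared with Timm21, which overlaps it on the opposite strand and stood at 15.4 and 16.9 TPM in mESC and 49.1 and 49.9 TPM in NPC.

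Among C2H2 zinc finger genes named Zfp, 137 of 342 tested members rose and 40 fell (67 and 20 in all 5 fits, 91 and 60 after quantile normalization). Zfp703 rose from 0.942 and 0.808 TPM to 49.5 and 54.1 TPM and Zfp503 from 0.349 and 0.277 TPM to 27.1 and 31.4 TPM. Zfp296 fell from 53.2 and 69.3 TPM to 0.938 and 0.395 TPM and Zfp57, which protects imprinted methylation, from 444 and 482 TPM to 60.1 and 84.7 TPM. Many of these genes are close copies of one another, so their reads may be split. Of the homeobox and Eya factors of the Iroquois list 11 of 15 tested members rose and 0 fell (9 and 0 in all 5 fits, 1 lower at an unadjusted p under 0.05 by limma). Irx3 and Irx5, which pattern the neural tube, rose from 0.419 and 1.06 TPM to 105 and 86 TPM and from 0 and 1.06 TPM to 65.4 and 54 TPM. The septins, filament proteins of the cell cortex, rose at Sept5 from 1.07 and 1.24 TPM to 64 and 82.5 TPM (adjusted p = 1.95e-05, log2 fold change 5.10, SE 0.177) and Sept3 from 7.96 and 9.96 TPM to 100.2 and 108 TPM, while Sept1 fell from 139 and 91.5 TPM to 10.8 and 10.9 TPM.

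Few cytosolic ribosomal protein genes were called. Of 82 cytosolic ribosomal protein genes 0 rose and 5 fell by limma (0 higher at an unadjusted p under 0.05), and the 3 that fell in all 5 fits were the low-level paralogues Rpl10l, Rpl39l and Rpl3l. Rpl10l went from 22.7 and 24.4 TPM to 0.55 and 0.0291 TPM. Rpl39l stood at 20.6 and 17 TPM in mESC and was listed at 0 in both NPC libraries. These are near copies of abundant genes, so their counts are uncertain. Of 77 mitochondrial ribosomal proteins 3 rose and 19 fell, of which 0 and 0 held in all 5 fits. Of the host genes of small nucleolar RNAs, Snhg4 fell from 132 and 104 TPM to 31.8 and 35.9 TPM and Snhg12 fell from 174 and 184 TPM to 61.9 and 65.7 TPM, and in their list 1 of 14 tested members rose and 5 fell (0 and 4 in all 5 fits, 0 and 5 after quantile normalization).

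Genes of the primary cilium rose more often than they fell. The cilium is built by intraflagellar transport (IFT) trains and the BBS coat complex, and neural progenitors need it for Hedgehog signalling. Among these genes 20 of 36 tested members rose and 1 fell (8 and 1 in all 5 fits, 16 and 3 after median-of-ratios scaling). The median log2 fold change was 0.65, and 0.43 after median-of-ratios scaling. Bbs1 rose from 3.92 and 2.86 TPM to 15.9 and 16 TPM, Ift22 from 4.98 and 5.14 TPM to 22.1 and 20.8 TPM (adjusted p = 6.44e-04, log2 fold change 1.89, SE 0.195), Ift81 from 10.5 and 8.34 TPM to 32.1 and 30.5 TPM and Ift27 from 19.3 and 18.4 TPM to 50.7 and 49.7 TPM. Tulp3, which brings receptors into the cilium, was the one that fell, from 74.2 and 71.6 TPM to 37.2 and 40.3 TPM.

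RFX factors are known to switch on ciliary genes through a palindrome called the X-box. The 250 bases before the start of each gene were searched on both strands for a loose form of it, in which GTTNCC is followed by any 3 bases and GNNAC, and for the shorter site GTTGCCA, which the loose form can overlap, in RefSeq promoters of build GRCm38.p6. Of the 36 ciliary genes 31 had an entry, and 4 of these held the palindrome, which is 12.9% against 2.71% of all tested genes with an entry. The palindrome was also in 9.09% of the 22 promoters of the methionine, polyamine and creatine list and in 7.14% of the 28 of the aminoacyl-tRNA synthetases, 2 promoters in each. It was in 4.76% of the 21 of the serine, glycine, threonine and folate list and in none of the 31 of the purine and pyrimidine list. In the ciliary list the shorter site was in 6.45% against 3.86%. The 4 ciliary windows with the palindrome are shown with the match in capitals, 5′ to 3′ on the strand of the gene. Bbs7, Ift22 and Nphp4 rose and Ift57 did not pass the test.
Bbs7 (chr3:36613390-36613639, minus strand): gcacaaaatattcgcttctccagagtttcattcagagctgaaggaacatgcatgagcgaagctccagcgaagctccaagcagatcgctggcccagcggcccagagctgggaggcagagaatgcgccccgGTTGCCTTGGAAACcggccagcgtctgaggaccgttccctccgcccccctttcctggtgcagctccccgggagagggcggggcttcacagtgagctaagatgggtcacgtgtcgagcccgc
Ift22 (chr5:136907900-136908149, plus strand): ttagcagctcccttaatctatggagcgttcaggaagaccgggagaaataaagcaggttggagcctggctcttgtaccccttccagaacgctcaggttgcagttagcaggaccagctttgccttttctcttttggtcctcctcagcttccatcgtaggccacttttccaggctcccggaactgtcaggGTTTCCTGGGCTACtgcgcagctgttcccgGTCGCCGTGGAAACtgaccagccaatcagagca
Ift57 (chr16:49699044-49699293, plus strand): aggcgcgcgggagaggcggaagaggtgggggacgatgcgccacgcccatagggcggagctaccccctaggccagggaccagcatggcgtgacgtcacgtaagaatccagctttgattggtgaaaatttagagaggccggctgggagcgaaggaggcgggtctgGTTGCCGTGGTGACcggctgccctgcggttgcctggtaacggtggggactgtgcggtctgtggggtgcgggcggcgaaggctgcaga
Nphp4 (chr4:152477892-152478141, plus strand): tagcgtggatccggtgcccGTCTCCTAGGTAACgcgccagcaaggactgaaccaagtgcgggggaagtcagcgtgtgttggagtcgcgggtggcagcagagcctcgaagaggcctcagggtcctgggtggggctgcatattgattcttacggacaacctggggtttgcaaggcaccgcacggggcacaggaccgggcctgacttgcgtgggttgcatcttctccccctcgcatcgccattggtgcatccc
Ift22 holds 2 matches, 63 and 33 bases before its start. Bbs7 stood at 5.27 and 4.23 TPM in mESC and 13.6 and 11 TPM in NPC and lost its call without NPC replicate 1 (log2 fold change 1.07), Nphp4 stood at 6.06 and 4.48 TPM in mESC and 8.84 and 11.5 TPM in NPC and lost its call in each fit without 1 library, where the log2 fold change ranged from 0.65 to 1.02, and Ift57 stood at 10.4 and 13.5 TPM in mESC and 16.2 and 15.5 TPM in NPC (adjusted p = 0.172). A gene that overlaps Nphp4 on the opposite strand stood at 3.95 and 0.873 TPM in mESC and 9.43 and 11.7 TPM in NPC. Of the 16 ciliary genes with an entry that rose, 3 held the palindrome, and of the 14 that were not called, 1 did. Among rising genes with an entry, 2 of 6 in the methionine, polyamine and creatine list held it. So did 1 of 3 in the serine, glycine, threonine and folate list and 0 of 5 in the purine and pyrimidine list. The E-box CACGTG, bound by MYC and other factors, was searched in the same way in the purine and pyrimidine list and was in 9.68% of 31 promoters against 9.61% of all tested genes. A match describes these letters only.

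Genes that were switched on or off outright were counted by level alone. At least 10 TPM in both NPC libraries and under 0.5 TPM in both mESC libraries was reached by 164 genes, 129 of them protein-coding. The reverse held for 76 genes, 55 of them protein-coding. Of the genes outside every list, apart from Hox genes, Ntng2, a netrin-like membrane protein, Unc5a, a netrin receptor, and Robo3, a receptor of commissural axons, had the largest rising folds. Unc5a went from 0.367 and 0.336 TPM to 186 and 169 TPM (adjusted p = 7.62e-06, log2 fold change 7.04, SE 0.176) and Robo3 from 0.317 and 0.395 TPM to 133 and 223 TPM. A gene that overlaps Unc5a on the opposite strand went from a listed 0 in both mESC libraries to 56.4 and 39.6 TPM. Among the falling ones, Trh, the precursor of thyrotropin-releasing hormone, went from 558 and 663 TPM to 0.919 and 1.1 TPM (adjusted p = 7.62e-06, log2 fold change -8.24, SE 0.206), and Tcea3, an elongation factor, from 89 and 115 TPM to a listed 0 in both NPC libraries.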

How the data were processed

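Messenger RNA was measured by sequencing on an Ion Proton in 2 libraries each of mESC, NPC and of another group titled NC. Per the labels' protocols, RNA was enriched for poly(A) and depleted of ribosomal RNA. Per the submitters' processing notes the tools were STAR 2.7.9a and StringTie 2.1.5, with cutadapt 3.4, FastQC, DESeq2 and R 4.0.3 also named, on build mm10. No label or header states the strand setting or the annotation release. The authors deposited 1 gene abundance table per library with coverage, FPKM and TPM; these are not counts, so no count test was used. Deposited TPM was the main value, deposited FPKM an alternative, and the ratio of deposited coverage (a signal) to FPKM gave the aligned bases.

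Lines of one gene ID were summed, which left 46517 IDs, of which 46005 matched GENCODE vM21 for symbols. A gene entered the test with 1 TPM or more in 2 or more of the 6 libraries, as log2(TPM + 1) by limma 3.58.1 in R 4.3.3 (all 6 libraries in the fit, variance trend, 3 residual degrees of freedom, Benjamini-Hochberg adjustment over 20232 genes). Fold changes are on that scale and understate changes of low genes. Tested on simulated data, the fit called 25 of 100 altered genes at log2 fold 1 and 72 of 100 at log2 fold 2. Of its calls 4% were false. Only these altered genes differed among 20232 simulated ones, while 40.0% of genes were called in the data. The adjusted cutoff was therefore stricter in the simulation, and its shares do not give the recovery or the false share here.

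The gene lists and the genes to name were chosen with earlier results of these data known. The rule named each list's preset members, up to 2 called members with the largest change each way, 36 preset pairs of paralogues, and the largest changes over all genes. Of 268 genes named or drawn, 69 lie outside the rule and were chosen after their values were seen; they include the stem and progenitor markers, the endoderm markers, collagen IV, the purine enzymes and overlapping neighbours. Of the 268, 72 overlap another gene of at least 1 TPM, and for 23 that neighbour reached at least 0.25 of the gene's level. These include Crb2, Nid2, Ptprd, Slc28a1, Gngt2, Itgb3bp, Col4a1 and Col4a2, for which the overlap is not stated where they are described. The alternatives were the pseudocount, the filter, FPKM, 2 scalings, a fit on 4 libraries, no variance trend, a replicate block and each library left out.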

Additional observations from a re-analysis of the deposited data

How the results depend on the processing

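With 1 of the 4 libraries left out, the number of genes called higher in NPC ranged from 2665 to 4257 and lower from 1367 to 2118. The same ranges were 45 to 98 and 38 to 80 for transporters, 131 to 166 and 28 to 44 for adhesion and matrix, 154 to 216 and 56 to 84 for signalling, 78 to 138 and 56 to 114 for metabolism, and 236 to 366 and 98 to 169 for gene families. Each lowest count came without an NPC library. Fewer samples enter these fits, and a group of 1 library is assumed to vary like the others. The 11 other alternatives left each of these counts within 1.5 times its main value. Same-numbered mESC and NPC libraries showed no shared deviation across genes, with a correlation of 0.045. This cannot show whether the replicate numbers pair the libraries, and the labels do not say. With a replicate block 4772 genes rose and 2596 fell. Of 240 called genes named, 211 kept direction and call under each of the 15 alternatives in which they were tested, and 0 reversed. A low gene that a stricter filter left untested, such as Fut4, is not counted as having lost its call. Under an alternative other than leaving out a library 19 lost the call, 18 of them with no filter beyond a TPM above 0. Of 28 genes named without a call, 14 were called under an alternative, among them Lama1 without mESC replicate 1 and Lamc1 without mESC replicate 2, and 12 changed sign. With 1 library left out, the log2 fold change of those that did so ranged from -1.79 to 0.74 for Cubn, -0.88 to 1.21 for Dab2, -0.55 to 1.11 for Gata6, -0.034 to 0.42 for Gja1, -0.17 to 0.57 for Hk1, -0.11 to 0.96 for Krt8, -0.70 to 1.60 for Lama1, -0.78 to 1.17 for Lamb1, -1.34 to 0.0611 for Lamc1, -0.0285 to 0.13 for Pkm, -0.25 to 1.13 for Sox7 and -0.34 to 1.81 for Ttr. With FPKM it was -0.0563 for Pkm. After median-of-ratios scaling it was -0.0622 for Dab2, -0.0331 for Gja1, -0.0214 for Hk1, -0.0314 for Lamb1 and -0.18 for Pkm. After quantile normalization it was -0.095 for Gata6 and -0.0869 for Hk1. The cause was not tested. With 2 libraries a group, changes near a log2 fold of 1 can be missed, and how often was not measured at the cutoff of these data.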
